A study of Homo sapiens with 20 samples.

Results

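The 10 genes described here build the meiotic chromosome axis, the synaptonemal complex and the recombination machinery: SYCP1, SYCP2, SYCP3, SYCE1, STAG3, SMC1B, HORMAD1, REC8, DMC1 and MEIOB. They were taken by gene name from an expression table of 60232 genes, in which all 10 were found once, and every library was used. RNA was sequenced from 5 human gastric cancer cell lines given dimethyl sulfoxide (DMSO), the vehicle, or decitabine (DCB), with 2 libraries per line and treatment and 20 in all. DCB, a cytidine analog, enters DNA as it is copied and depletes DNA methyltransferases, and cells received it for 72 h. Epstein-Barr virus is carried by YCCEL1 and SNU719 (EBV+) and not by AGS, SNU16 and HGC27 (EBV-). The CpG island methylator phenotype is found in YCCEL1, SNU719 and AGS (CIMP+) and not in SNU16 and HGC27 (CIMP-). The labels give the genotype of all lines as wild type, and each line is a single established culture of tumor origin. The comparison asks which of these germline genes respond to inhibition of DNA methylation, and whether the response depends on the line, on EBV or on CIMP status.

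In meiosis, homologous chromosomes pair along a protein axis. REC8, STAG3 and SMC1B are the meiotic forms of cohesin subunits, which hold sister chromatids together, and SYCP2, SYCP3 and HORMAD1 are laid down along that axis. SYCP1 and SYCE1 belong to the zipper that joins the paired axes, DMC1 is the meiotic recombinase that carries out strand exchange, and MEIOB binds single-stranded DNA during the repair of meiotic breaks. Most of these genes are silent in somatic tissue, several are known to be kept off by promoter methylation or by repressor complexes, and some are known as cancer testis genes because tumors can express them.

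Values are normalized estimated counts, and the 20 libraries held 7101709 to 10731382 read equivalents, estimated from the value of 1 read in each library (0.754 to 1.21). A value near 1 is thus about 1 read. Differences were tested with limma on log2(value + 1), on which the change of low values is understated, and a gene is said to have risen or fallen at a Benjamini-Hochberg adjusted p below 0.05 over 27350 tested genes. Values are not corrected for gene length, so levels are compared between libraries and not between genes. Nothing in the labels says that the 2 libraries of a group are separate cultures. The p-values of single lines and of differences between lines therefore measure the spread between these libraries. Those of the fit over all lines, with terms for line and treatment only, also take in differences in response among the lines. Epithelial markers summed to 37257 to 108075 per group in 4 lines. HGC27 had 159 in DMSO and 572 in DCB, and its summed fibroblast markers were 47884 and 51203, against 17.6 to 1967 in the other lines. Markers of gastric mucosa summed to 0.604 to 1927 over the groups and to at most 6.09 in HGC27.

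The table places all 10 genes on GRCh38. The sequences before the starts of 5 of them are shown. SYCP3 rose in all 5 lines, SMC1B, STAG3 and SYCP2 each share a short stretch with a neighbor that is read the other way and whose values are given further on, and DMC1 passed the test in no line. Each run is from hg38, 5′ to 3′ on the strand of the named gene, and ends at the base before its start in the table. For SMC1B, STAG3 and SYCP2 it reaches to the start of the neighbor, for SYCP3 to the nearest exon of CHPT1, a gene of phospholipid synthesis in whose span SYCP3 lies. Capitals mark TCCCGC, read on either strand, a core bound by E2F proteins. No CACGTG, the E-box core, occurred in these runs.
SYCP3, chr12:101739473-101739577, minus strand: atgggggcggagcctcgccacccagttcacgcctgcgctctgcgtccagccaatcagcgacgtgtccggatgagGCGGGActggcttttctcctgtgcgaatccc
SMC1B, chr22:45413620-45413692, minus strand: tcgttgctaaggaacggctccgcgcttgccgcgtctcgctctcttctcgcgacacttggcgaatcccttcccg
STAG3, chr7:100177382-100177562, plus strand: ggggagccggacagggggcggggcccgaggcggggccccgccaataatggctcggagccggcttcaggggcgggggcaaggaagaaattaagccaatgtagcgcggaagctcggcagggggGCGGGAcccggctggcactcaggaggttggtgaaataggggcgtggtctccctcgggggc
SYCP2, chr20:59933656-59933763, minus strand: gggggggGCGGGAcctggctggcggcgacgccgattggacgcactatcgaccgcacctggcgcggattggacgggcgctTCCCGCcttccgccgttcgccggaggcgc
DMC1, chr22:38570205-38570433, minus strand: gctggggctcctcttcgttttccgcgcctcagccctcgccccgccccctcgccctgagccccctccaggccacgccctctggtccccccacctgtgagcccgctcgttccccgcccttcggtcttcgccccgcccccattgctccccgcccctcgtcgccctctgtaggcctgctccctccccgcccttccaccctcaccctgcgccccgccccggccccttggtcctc

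The runs hold 10 CG dinucleotides in 105 bases for SYCP3, 11 in 73 for SMC1B, 15 in 181 for STAG3, 18 in 108 for SYCP2 and 20 in 229 for DMC1. RefSeq promoter windows of 300 bases (250 before the start and 50 after, GRCh38.p14) were found for 8 of the 10 genes and numbered 10, since STAG3 and SYCE1 have more than 1 start. HORMAD1 and MEIOB had no entry. TCCCGC, searched on both strands, was in 9 of the 10 windows, those of 7 genes, and was missing from DMC1. Other forms of the E2F site were not searched, so its absence from DMC1 does not show that no E2F site is there. Among all 35116 windows it was in 26.9%. In SMC1B, 1 of its matches lies across the start used in the table, so that the run above ends within it. CACGTG was in both windows of STAG3, which overlap and share the same match, and in 1 of SYCE1, against 7.26% of all windows. TGACGTCA, the cyclic AMP response element, was in none, against 1.85%. The windows held from 15 CG dinucleotides in SYCP1 to 41 in SYCP2, while the median of all windows was 14 and the quartiles were 4 and 28. Each of these motifs contains a CG, and the shares given for all windows were not matched for CG content. These matches describe the letters of the windows and were not tested.

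Over the 5 lines, 8 of the 10 genes rose with DCB and none fell, whereas 17.9% of all tested genes rose and 6.94% fell. In bulk libraries, more cells with a transcript and more of it per cell cannot be told apart. SYCP3, SYCE1, SMC1B, MEIOB, HORMAD1, STAG3, SYCP2 and REC8 rose. DMC1 did not pass the test, and SYCP1 was too low to be tested, which leaves 9 tested genes. Of these, 5 also passed a limit of 2 on the log2 difference, against 3.4% of all tested genes. The median log2 difference of the 9 genes was 2.73, while that of all tested genes was 0.15. The fitted differences behind the limit and the median depend on the pseudocount for SYCE1, SMC1B, MEIOB and HORMAD1, which were listed at 0 in 1 or more DMSO groups, and for SYCP3, which was near 0 there. The count was 4 when the 5 lines, rather than the libraries, served as the replicates, and STAG3, HORMAD1, SYCP2 and REC8 then missed the threshold (adjusted p = 0.0514, 0.0823, 0.111 and 0.187).

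**Figure D1:**
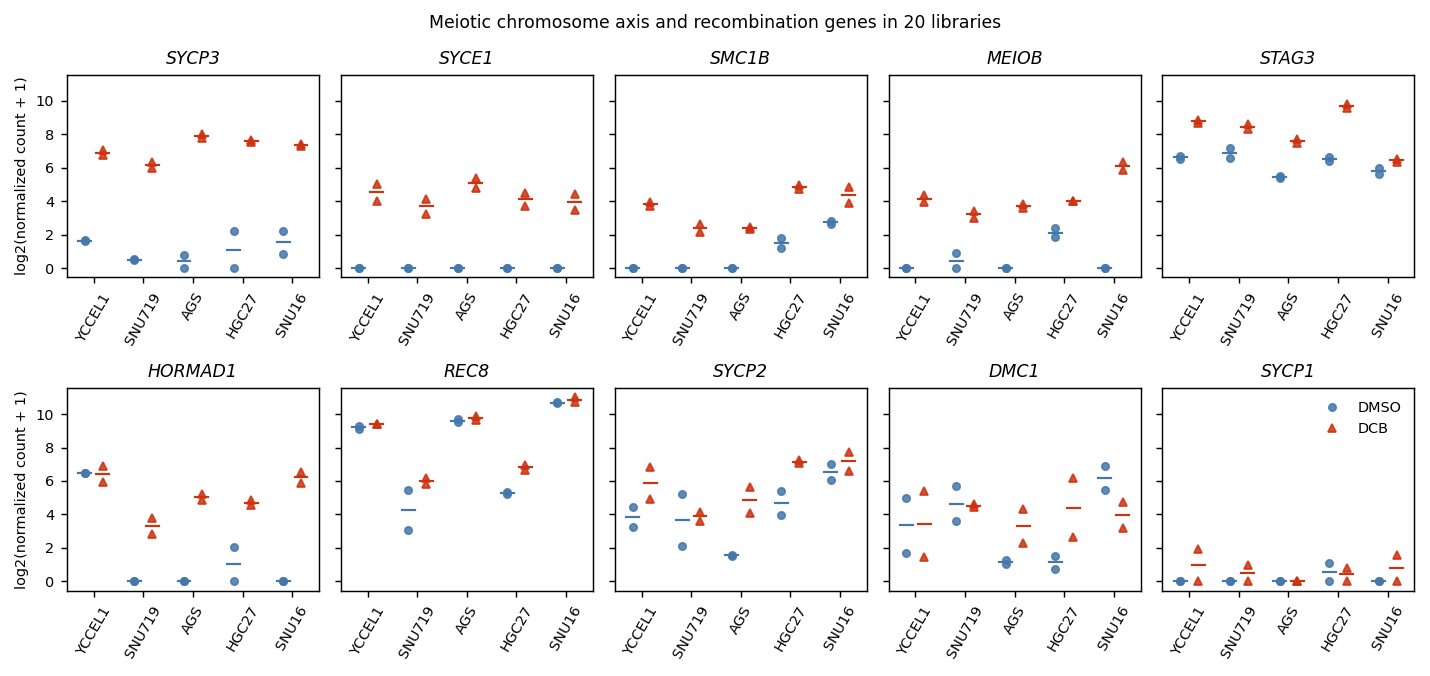
Each panel plots 1 gene as log2(normalized count + 1) in the 20 libraries, where circles are DMSO, triangles are DCB and a bar lies at the mean of the 2 libraries of a line. SYCP3 and SYCE1 lie higher in DCB in all 5 lines, HORMAD1 does so in all but YCCEL1, REC8 differs mainly between lines, and DMC1 scatters within groups.

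By line, 5 of the 10 genes rose in YCCEL1, where 14.6% of all tested genes rose and 6.93% fell. In SNU719 7 rose (13.5% of all rose and 7.64% fell), in AGS 7 (18.5% and 9.13%), in HGC27 7 (14.7% and 9.03%) and in SNU16 5 (4.5% and 2.34%), and none of the 10 fell in any line. SYCP3, SYCE1, SMC1B and MEIOB rose in all 5 lines. STAG3 and HORMAD1 rose in 4 lines each, STAG3 in all but SNU16 and HORMAD1 in all but YCCEL1. REC8 rose in SNU719 and HGC27, SYCP2 rose in AGS, and DMC1 rose in no line. When each line was fitted alone, with 2 libraries per treatment, 4 genes rose in SNU719, 4 in HGC27 and 2 in SNU16. The calls lost were those of STAG3, REC8 and MEIOB in SNU719 (adjusted p = 0.067, 0.389 and 0.0579), of SYCP2 in AGS (0.0905), of SYCP3, HORMAD1 and MEIOB in HGC27 (0.0557, 0.121 and 0.0821), and of SYCP3, SYCE1 and SMC1B in SNU16 (0.0872, 0.088 and 0.279).

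SYCP3, a filament-forming protein of the lateral element of the synaptonemal complex (chr12:101728648-101739472, minus strand), was near the level of single reads in DMSO and rose in every line. In YCCEL1 its normalized counts were 2.17 and 2.04 in DMSO and 134 and 106 in DCB, and in SNU719 they were 0.435 and 0.394 in DMSO and 61.7 and 79.7 in DCB. The AGS libraries held 0.732 and 0 in DMSO and 255 and 217 in DCB. In HGC27 the values were 0 and 3.58 in DMSO against 197 and 188 in DCB, and SNU16 had 3.69 and 0.811 against 172 and 158. The highest DMSO library stood at 3.69 and the lowest DCB library at 61.7, so the treatments did not overlap. The log2 difference over the 5 lines was 6.15 (SE 0.307, adjusted p = 1.9e-10). It ranged from 5.27 in YCCEL1 to 7.49 in AGS, and a test of whether it differed among the lines did not pass (adjusted p = 0.222). These sizes rest on DMSO values of 0 to 3.69, and over the lines the SYCP3 difference was 6.65 with a pseudocount of 0.5 and 4.58 with 5. Neighboring lines in the order of the DCB levels, AGS, HGC27, SNU16, YCCEL1 and SNU719, did not differ beyond their spread.

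SYCP2, the partner of SYCP3 in the lateral element (chr20:59863564-59933655, minus strand), was above 0 in all 20 libraries, with wide spread between replicates. In AGS its normalized counts were 2.03 and 1.91 in DMSO and 15.8 and 49.3 in DCB, and in HGC27 they were 14.4 and 41.5 in DMSO and 133 and 149 in DCB. YCCEL1 had 20.6 and 8.46 in DMSO and 28.8 and 111 in DCB. In SNU719 the libraries, at 37.1 and 3.28 in DMSO and 16.9 and 11.4 in DCB, overlapped, and those of SNU16, at 66.3 and 126 in DMSO against 214 and 97.3 in DCB, did too. The higher replicate was a median of 2.32 times the lower, and up to 11.3 times. The log2 difference was 1.73 over the 5 lines (SE 0.453, adjusted p = 0.00906), and this call was lost without AGS (0.0746) or without HGC27 (0.0568). Of the single lines AGS passed, with 3.29 (SE 0.930, adjusted p = 0.0169), while HGC27 had 2.47 (adjusted p = 0.0732). The AGS call was lost without AGS DMSO replicate 1 (adjusted p = 0.0672), DMSO replicate 2 (0.0721) or DCB replicate 2 (0.15). HGC27 passed the test when either SNU719 DMSO library was left out (adjusted p = 0.0276 and 0.0272). Over the treated lines, SYCP2 ran from SNU16 and HGC27 down to SNU719. Its DCB level differed among the 5 lines (adjusted p = 0.0198, limma's F test), as did that of 72.8% of all tested genes. No neighboring lines in that order differed beyond their spread.

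HORMAD1, a HORMA-domain protein of unpaired axes and a known cancer testis antigen (chr1:150698060-150720895, minus strand), was already present in untreated YCCEL1. The YCCEL1 libraries held 88.0 and 89.8 in DMSO and 118 and 61.2 in DCB, and the log2 difference was -0.07 (SE 0.569, adjusted p = 1). In SNU719, AGS and SNU16 the gene was listed at 0 in both DMSO libraries. In DCB the values were 12.7 and 6.10 in SNU719, 28.6 and 35.9 in AGS and 57.2 and 93.3 in SNU16 (adjusted p = 8.1e-04, 1.5e-05 and 1.1e-05). No fold is given for these lines because their DMSO groups were at 0. HGC27 had 0 and 3.12 in DMSO and 27.8 and 22.3 in DCB, a log2 difference of 3.67 (SE 0.569, adjusted p = 2.9e-04). Untreated YCCEL1 stood above HGC27, the next line in the order, by 5.47 on the log2 scale (adjusted p = 1.5e-06). After DCB the level still differed among the 5 lines (adjusted p = 0.00119, limma's F test), as did that of 72.8% of all tested genes. Only neighboring lines in the order YCCEL1, SNU16, AGS, HGC27 and SNU719 did not differ beyond their spread.

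Of the genes of the zipper between the axes, SYCE1 responded in every line and SYCP1 stayed close to 0. SYCE1, a central element protein (chr10:133553901-133569835, minus strand), was listed at 0 in all 10 DMSO libraries. With DCB its normalized counts were 15.1 and 32.0 in YCCEL1, 8.39 and 16.6 in SNU719, 40.2 and 27.1 in AGS, 12.3 and 21.6 in HGC27 and 20.2 and 10.1 in SNU16. The lowest DCB library held 8.39, and the adjusted p was 1.4e-09 over the 5 lines and 1.4e-04 or lower in each. The response did not pass the test for a difference among lines (adjusted p = 0.425), and no neighboring lines differed in DCB level.

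SYCP1, the transverse filament protein that spans the gap between the axes (chr1:114854863-114995370, plus strand), was listed at 0 in 15 of 20 libraries. Its highest value was 2.86, in 1 DCB library of YCCEL1, and its values summed to 7.72 over all libraries, under the minimum of 10 for testing. In DMSO it was above 0 in 1 library of HGC27, at 1.15. Of the other central element genes, SYCE2, SYCE3, TEX12, C14orf39 and SYCE1L, none of the 5 passed the test over the lines by limma, and SYCE3, which had the lowest adjusted p, gave 0.73 on the log2 scale (adjusted p = 0.0754).

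All 3 meiotic cohesin subunits rose over the 5 lines. STAG3, the meiosis-specific STAG subunit (chr7:100177563-100221488, plus strand), was present in all untreated lines. Its normalized counts were 92.6 and 102 in DMSO and 403 and 465 in DCB in YCCEL1, and 94.8 and 142 in DMSO and 313 and 388 in DCB in SNU719. AGS had 44.5 and 40.7 in DMSO and 207 and 176 in DCB. In HGC27 it went from 101 and 83.8 in DMSO to 773 and 879 in DCB, the largest STAG3 response of the lines, and SNU16 had 47.6 and 63.3 against 91.8 and 79.5. Both DCB libraries were above both DMSO libraries in every line. Over the 5 lines the log2 difference was 1.93 (SE 0.215, adjusted p = 6.5e-06). It was 3.15 in HGC27 (SE 0.208, adjusted p = 8.0e-08), 2.14 in YCCEL1 (5.2e-06), 2.14 in AGS (3.7e-06) and 1.58 in SNU719 (9.1e-05). SNU16 did not pass, with 0.63 (SE 0.208, adjusted p = 0.0967). The STAG3 response differed among the 5 lines (adjusted p = 2.3e-04, limma's F test), as did that of 34.2% of all tested genes. In DCB the order was HGC27, YCCEL1, SNU719, AGS and SNU16, and each step passed the test except that from YCCEL1 to SNU719 (adjusted p = 0.293).

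STAG3 has partial copies on the same chromosome, whose reads could be split with it. Of the 6 STAG3-like copies tested, chosen after the data were seen, none rose over the 5 lines by limma and STAG3L4 fell, by 0.40 on the log2 scale (adjusted p = 0.0205). In HGC27, where STAG3 rose most, STAG3L5P went from 297 in DMSO to 188 in DCB (adjusted p = 0.00615).

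SMC1B, the meiotic form of the SMC1 coiled-coil subunit (chr22:45344063-45413619, minus strand), was listed at 0 in untreated YCCEL1, SNU719 and AGS and rose in all 5 lines. With DCB the normalized counts were 12.4 and 14.6 in YCCEL1, 5.18 and 3.39 in SNU719 and 4.45 and 4.08 in AGS (adjusted p = 7.6e-06, 5.4e-04 and 3.7e-04). The SNU719 and AGS values are those of a few reads. HGC27 had 2.44 and 1.28 in DMSO and 26.0 and 29.6 in DCB, a log2 difference of 3.36 (SE 0.389, adjusted p = 2.2e-05). SNU16 had 6.03 and 5.23 in DMSO and 13.7 and 28.2 in DCB, a log2 difference of 1.65 (SE 0.389, adjusted p = 0.0204). The SNU16 call was lost without its DMSO replicate 1 (adjusted p = 0.073), DMSO replicate 2 (0.11) or DCB replicate 2 (0.178). The size of the response differed among the lines (adjusted p = 0.0347, limma's F test). In DCB the step from YCCEL1 down to AGS passed the test (adjusted p = 0.00836), which left HGC27, SNU16 and YCCEL1 above AGS and SNU719.

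REC8, the meiotic kleisin that closes the cohesin ring (chr14:24171853-24180257, plus strand), was split between lines before treatment. Untreated SNU16 held 1708 and 1589, AGS 849 and 723 and YCCEL1 634 and 559 normalized counts, whereas HGC27 held 36.8 and 38.9 and SNU719 43.2 and 7.33. The step from YCCEL1 to HGC27 was 3.94 on the log2 scale (adjusted p = 9.2e-06), and the other steps in the order did not pass. With DCB the values were 99.6 and 125 in HGC27 and 55.1 and 71.0 in SNU719. The 2 lines with low REC8 were those in which it rose, by 1.73 in SNU719 (SE 0.491, adjusted p = 0.0219) and by 1.54 in HGC27 (SE 0.491, adjusted p = 0.0358). In the other lines DCB libraries held 2072 and 1691 in SNU16, 806 and 962 in AGS and 669 and 667 in YCCEL1. Their log2 differences were 0.18, 0.17 and 0.16, and their 95% intervals reached from about -0.89 to 1.24. The test of whether the response differed among lines did not pass (adjusted p = 0.158).

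The REC8 calls rested on few libraries. In SNU719, DMSO replicate 1 was 5.9 times replicate 2. The SNU719 call was lost without DMSO replicate 2 (log2 difference 0.52, adjusted p = 0.0952), DCB replicate 1 (0.0606) or DCB replicate 2 (0.124), and the HGC27 call was lost whichever of its 4 libraries was left out (adjusted p = 0.0888 to 0.169). Over the 5 lines the log2 difference of REC8 was 0.76 (SE 0.255, adjusted p = 0.0368). It missed the threshold without either DCB library of SNU719 or any library of HGC27 (adjusted p = 0.0601 to 0.0737), and without any line other than SNU16 (0.0506 to 0.199).

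The 2 recombination genes differed. MEIOB (chr16:1833986-1884294, minus strand) was at or near 0 in DMSO and rose in all 5 lines. In YCCEL1, AGS and SNU16 both DMSO values were 0, and the normalized counts in DCB were 14.4 and 19.5 in YCCEL1, 13.5 and 11.2 in AGS, and 80.8 and 57.2 in SNU16 (adjusted p = 3.8e-06, 7.5e-06 and 4.9e-07). SNU719 had 0.863 and 0 in DMSO and 9.70 and 7.08 in DCB, a log2 difference of 2.77 (SE 0.391, adjusted p = 1.6e-04). HGC27 had 2.60 and 4.27 in DMSO and 15.2 and 15.0 in DCB, a log2 difference of 1.89 (SE 0.391, adjusted p = 0.0027). Treated SNU16 stood above YCCEL1, the next line, by 1.96 on the log2 scale (adjusted p = 0.00102), and no other step in the order passed the test. The response differed among lines (adjusted p = 4.7e-04, limma's F test).

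DMC1 (chr22:38518948-38570204, minus strand) was above 0 in all 20 libraries and passed the test in no line. Its normalized counts were 31.2 and 2.28 in DMSO and 41.4 and 1.74 in DCB in YCCEL1, and 51.1 and 11.1 in DMSO and 23.3 and 20.7 in DCB in SNU719. AGS had 1.46 and 1.02 in DMSO and 19.4 and 3.82 in DCB. In HGC27 the libraries held 0.699 and 1.86 in DMSO against 5.37 and 70.2 in DCB, and in SNU16 they held 42.7 and 119 against 26.2 and 8.15. In AGS and HGC27 the DCB libraries lay above the DMSO libraries, in SNU16 below them, and in the EBV+ lines they overlapped. The higher replicate was a median of 3.9 times the lower and up to 23.8 times, the widest spread of the tested members. Over the 5 lines the log2 difference was 0.63 (SE 0.713, adjusted p = 0.564), with a 95% interval from -0.86 to 2.13, so a response of the size of that of STAG3 lies inside it.

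The response of 1 of the 10 genes, HORMAD1, differed by EBV and by CIMP status, and both differences were lost without YCCEL1. Among all tested genes, the response was higher in CIMP+ lines for 12.8% and lower for 8.94%, and it was higher in EBV+ lines for 10.5% and lower for 9.17%. The adjusted p for HORMAD1 was 0.00788 for CIMP and 4.0e-04 for EBV, with smaller responses in the positive lines. Without YCCEL1, in which HORMAD1 was already present, the adjusted p was 0.427 for CIMP and 0.137 for EBV, and without SNU16 the CIMP difference was also lost (0.392). For SYCP3 the EBV+ lines lay below the EBV- lines, by 1.14 on the log2 scale (SE 0.536, adjusted p = 0.165). With lines as replicates, an exact permutation test of 3 against 2 lines was run, its two-sided p being the doubled smaller one-sided p. In this form it cannot go below 0.2, which is the p it gave for SYCP3 and HORMAD1 by EBV status. For STAG3, MEIOB, SMC1B, SYCE1, REC8, SYCP2 and DMC1 neither difference passed by limma. That of STAG3 by CIMP status was 0.06 with a 95% interval from -0.35 to 0.47, although it was -1.20 (adjusted p = 0.00303) without SNU16 and 1.32 (0.00653) without HGC27.

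Untreated, 7 of the 9 tested genes differed among the 5 lines (limma's F test), as did 67.7% of all tested genes, and in DCB 6 did, against 72.8%. SYCP3 and SYCE1 did not pass in DCB, and DMC1 passed in DMSO but not in DCB. In DMSO the test could not pass for SYCE1, which was listed at 0 in all 10 DMSO libraries. SYCP3 did not pass in DMSO either, where its values were 0 to 3.69.

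The somatic counterparts of the cohesin genes did not rise with them over the lines. Over the 5 lines, none of 10 genes of the cohesin complex of dividing cells, its regulators and single-strand binding rose by limma, and STAG1 fell, by 0.34 on the log2 scale (adjusted p = 0.00388). By line, 6 of the 10 fell in YCCEL1, 6 in SNU719, 3 in AGS and 4 in SNU16, and in HGC27 5 rose and 2 fell. Of all tested genes, 6.93%, 7.64%, 9.13% and 2.34% fell in the first 4 of these lines, and 14.7% rose and 9.03% fell in HGC27. RAD21, the kleisin that REC8 replaces in meiosis, fell from 1569 in DMSO to 945 in DCB in SNU719. In YCCEL1 it fell from 3172 in DMSO to 2127 in DCB and in AGS from 3153 to 2137. In HGC27 it rose from 6539.7 in DMSO to 9142 in DCB. SMC1A, the counterpart of SMC1B, went from 1326 in DMSO to 677 in DCB in SNU719 (log2 difference -0.96, adjusted p = 6.7e-05). In HGC27 it went from 1917 in DMSO to 3922 in DCB (log2 difference 1.03, adjusted p = 2.7e-05). SMC1A fell in YCCEL1 and SNU16 as well (adjusted p = 0.0103 and 0.0174). STAG2, the counterpart of STAG3 with STAG1, fell in YCCEL1 only among single lines (0.0134). SMC3, a subunit shared by both kinds of cohesin, fell in YCCEL1, SNU719 and AGS and rose in HGC27. RPA1, a single-strand binding protein related to MEIOB, fell in SNU719 and SNU16 and rose in HGC27. Of the cohesin regulators, PDS5A fell in YCCEL1, SNU719 and AGS and rose in HGC27, PDS5B fell in SNU719 and SNU16, WAPL fell in HGC27, and NIPBL passed in no line.

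**Figure D2:**
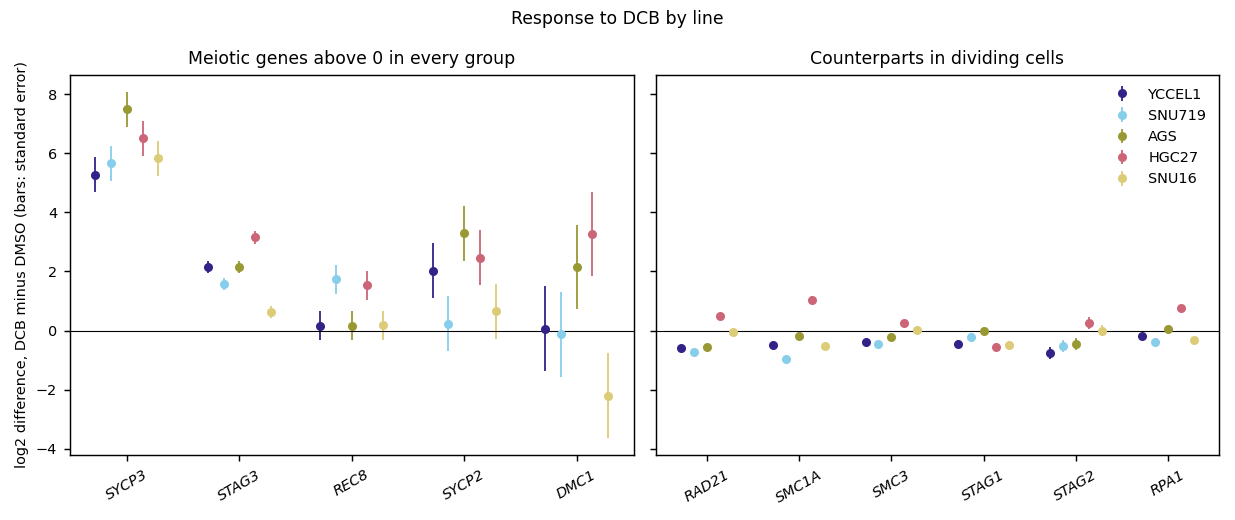
Points give the log2 difference between DCB and DMSO on the log2(value + 1) scale in each of the 5 lines. Bars are 1 standard error. Meiotic genes with no group at 0 are on the left and somatic genes of cohesin and single-strand binding on the right. The panels are not pairs, since SMC1B and MEIOB, related to SMC1A and RPA1, are not drawn. SYCP3 lies between 5.27 and 7.49, and REC8 between 0.16 and 0.18 in YCCEL1, AGS and SNU16. The genes on the right lie nearer to 0 than SYCP3, and those in HGC27, except STAG1, are above those of the other lines.

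Of other meiotic genes, grouped by role, some rose, but in no list did all tested genes rise. Of all tested genes, 17.9% rose over the 5 lines and 6.94% fell. Among regulators of meiotic entry 4 of 8 tested rose over the 5 lines: DAZL and RBM46, RNA-binding proteins of germ cells, MEIOSIN, a transcription factor of the meiotic program, and MEIOC. DAZL averaged 0.0892 in the 10 DMSO libraries and 229.8 in the 10 DCB libraries, and MEIOSIN 0.0962 and 11.6 (adjusted p = 3.0e-12 and 3.7e-08). RBM46 was listed at 0 in all DMSO libraries and averaged 15.9 in DCB (9.3e-07). DAZL, MEIOSIN and RBM46 each rose in all 5 lines.

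Of 5 tested partners of the axis and of cohesin, 2 rose: FKBP6, a chaperone of the male germ line, from a mean of 0.121 to 14.2 (adjusted p = 2.7e-07), and MEIKIN, a meiotic kinetochore protein, from 0 in all DMSO libraries to 3.65 (0.00838). TRIP13, the ATPase that removes HORMAD1 from the axis, had 0.63 on the log2 scale (adjusted p = 0.0922). Of 8 genes of break formation MEI1 rose, by 3.14 on the log2 scale (adjusted p = 6.1e-05). Of 11 genes of strand exchange TEX15 and HSF2BP rose, HSF2BP by 0.92 on the log2 scale (adjusted p = 0.0195). Both shares are near the 17.9% of all tested genes that rose. PSMC3IP and MND1, which assist DMC1, gave 0.18 and -0.12 on the log2 scale and did not pass (adjusted p = 0.59 and 0.676).

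Of 13 tested genes of crossover formation 4 rose and 1 fell, against 17.9% and 6.94% of all tested genes. TEX11 rose by 3.16 on the log2 scale (adjusted p = 1.4e-05) and PRR19 by 1.14 on the log2 scale (adjusted p = 1.6e-04), and RNF212 and SHOC1, named although outside the 3 genes of smallest p, rose as well (adjusted p = 3.9e-04 and 0.00152). CCNB1IP1, a ubiquitin ligase at crossover sites that somatic cells also express, fell in all 5 lines, from a mean of 1198 to 686 (log2 difference -0.79, adjusted p = 1.4e-07). Of 5 genes of telomere attachment KASH5 rose, from 0.942 to 3.21 (0.00191), a share near that of all tested genes. Markers of germ cells after meiosis summed to 0 to 7.09 per group, and none reached 10 in any group.

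Of 18 genes of DNA methylation and of the repressor complex PRC1.6, which is known to silence germline genes, 2 rose and 2 fell. Among all tested genes 17.9% rose and 6.94% fell. DNMT3B, a de novo methyltransferase, rose by 0.88 on the log2 scale (adjusted p = 1.9e-05) and MGA, the scaffold of PRC1.6, by 0.91 on the log2 scale (adjusted p = 0.028). KDM5C, a histone demethylase, and SETDB1, a histone methyltransferase, had -0.28 on the log2 scale (adjusted p = 0.00902) and -0.33 on the log2 scale (adjusted p = 0.011). E2F6, the E2F of that complex, gave -0.05 on the log2 scale (adjusted p = 0.764).

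Genes that start beside the members, or overlap them, were read in the same fit, 10 of 13 being high enough to test. RIBC2, a microtubule-associated gene that starts 74 bases from SMC1B and is read the other way, resembled its member in the lines at 0 in DMSO. While SMC1B rose in all 5 lines, RIBC2 rose in 2. It was listed at 0 in untreated YCCEL1, SNU719 and AGS, the lines in which SMC1B was at 0. With DCB it averaged 5.62 in YCCEL1 (adjusted p = 1.5e-04), 12.3 in AGS (7.6e-06) and 0.634 in SNU719 (0.233). In HGC27 it went from 16.6 in DMSO to 36.3 in DCB (adjusted p = 0.0546) and in SNU16 from 21.5 in DMSO to 24.5 in DCB (0.898).

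GPC2, a glypican that starts 182 bases from STAG3, moved otherwise. In HGC27, where STAG3 rose most, GPC2 fell from 489 in DMSO to 186 in DCB (log2 difference -1.39, adjusted p = 0.00647), and it passed in no other line. FAM217B, which starts 109 bases from SYCP2, fell over the 5 lines, by 0.44 on the log2 scale (adjusted p = 0.0239), while SYCP2 rose.

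**Figure D3:**
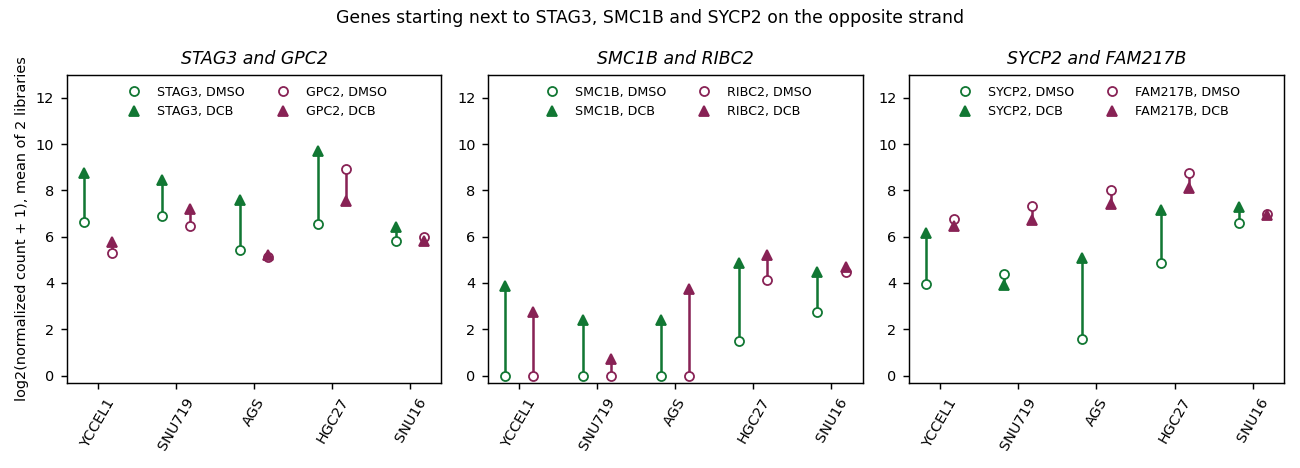
Each panel plots a meiotic gene (green) and the gene that starts beside it on the opposite strand (purple) as log2(normalized count + 1) of the mean of 2 libraries, with open circles for DMSO and triangles for DCB in the 5 lines. SMC1B and RIBC2 start from 0 in the same 3 lines, and in HGC27 STAG3 lies higher and GPC2 lower in DCB.

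Among overlapping genes on the opposite strand, CHPT1, in whose span SYCP3 lies, fell by 0.50 over the lines (adjusted p = 0.00898) and CASTOR3, which overlaps STAG3, rose by 0.50 on the log2 scale (adjusted p = 0.046). In HGC27, CASTOR3 averaged 276 in DMSO and 306 in DCB. Whether reads were counted by strand is not settled by the sources used here, and without strand the reads of such pairs cannot be told apart. IPO4, CYP2E1, FAHD1 and AL731769.2, which overlap REC8, SYCE1, MEIOB and SYCE1 on the opposite strand, did not pass over the lines. Neither did PVRIG, which overlaps STAG3 on the same strand, so that counting by strand would not separate this pair. Within single lines CYP2E1 rose in AGS (adjusted p = 0.00522), IPO4 rose in AGS (0.00121), and FAHD1 rose in YCCEL1 (4.2e-04) and fell in HGC27 (4.9e-04) and SNU16 (0.00900), while PVRIG and AL731769.2 passed in no line.

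Across the 20 libraries, the genes whose log2 values were most like those of SYCP3 by Pearson correlation were DAZL (0.979), PNMA6E (0.978) and TSPYL6 (0.971), and for SYCE1 they were PNMA6E (0.986), DMRTB1 (0.984) and MEIOSIN (0.981). For MEIOB they were PNMA5 (0.951), NEFH (0.950) and LINC00200 (0.949), and for SMC1B TRIM54 (0.939), KCNK15 (0.937) and HAGLR (0.925). REC8 was most like TUSC1 (0.937), SLC2A10 (0.935) and MLPH (0.934), while HORMAD1 was most like CAVIN2 (0.938), with the next gene, LINC01694, at 0.854. STAG3 was most like AC091230.1 (0.922), AC132217.1 (0.912) and EVA1A (0.907). SYCP2 and DMC1 had no gene above 0.852 and 0.795. The libraries share lines and treatment, so these values describe likeness and carry no test.

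Markers of leukocytes summed to 12.4 to 122 in the DMSO groups and 50.5 to 662 in the DCB groups, and those of endothelial cells to 0.386 to 4.07 and 5.23 to 30.7. In the fit over the lines 4 of 5 tested leukocyte markers and 2 of 3 endothelial markers rose. Of the fibroblast markers 5 of 6 rose, and their sum went from 297 to 1967 in AGS, and of the gastric mucosa markers 3 of 6 rose, with a sum of 21.5 in DMSO and 771 in DCB in SNU719 but 274 in DMSO and 149.9 in DCB in AGS. The part of these markers in the results above was not tested.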

How the data were processed

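RNA-seq was analyzed for 20 libraries (5 lines, DMSO or DCB, 2 libraries each), grouped by their labels. The deposited values are normalized estimated counts (a signal that is not whole), made by the authors. Per the labels, libraries were poly(A)-selected NEBNext Ultra, and the submitters' notes name GRCh37, STAR 2.5.2b, DESeq2 1.14.1 and featureCounts 1.5.1. The methods of the study describe 3′ QuantSeq and GRCh38, and 92.6% of 60064 genes have GENCODE v44 (GRCh38) coordinates. The study's text names MKN74 in places and HGC27 in another, and the labels' HGC27 was used here. CIMP status is from the study.

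Genes summing to more than 10 were tested (27350) with limma 3.58.1 (R 4.3.3) on log2(value + 1) with a mean trend: line plus treatment over the 5 lines, and 10 groups for single lines and differences, with Benjamini-Hochberg adjustment. Scripts were tested on simulated data. Of the low values in each library, 36.4% to 44.5% were whole multiples of 1 read, so no count model was fitted. Counting error sets the precision of values near 1.

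The members and gene lists were chosen with earlier results of these data known. Named were the members, the somatic counterparts, the neighbors, up to 3 genes of smallest adjusted p over the lines per further list, and the 3 genes most like each member. MEIOC, PSMC3IP, MND1, RNF212, SHOC1, MGA, E2F6 and the STAG3-like copies were named outside this rule, after their values were seen. Pseudocount, filter, scaling, trend, fold limit, samples in the fit and replicate block were varied. Protein sequences were not analyzed here, and 1 gene of the somatic list is not reported here.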

Additional observations from a re-analysis of the deposited data

Results flagged for a closer look

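The HORMAD1 response was smaller in CIMP+ than in CIMP- lines by a fitted difference of -2.18 on the log2 scale (adjusted p = 0.00788, limma), and smaller in EBV+ than in EBV- lines by -3.36 (adjusted p = 4.0e-04). Both were noted because the difference between the groups of lines was itself tested and passed. Both sizes depend on the pseudocount of 1, since SNU719, AGS and SNU16 were listed at 0 in DMSO. In YCCEL1 the normalized counts were 88.0 and 89.8 in DMSO and 118 and 61.2 in DCB, and without this line neither difference passed. In SNU719, the other EBV+ line, HORMAD1 went from 0 in both libraries to 12.7 and 6.10. With 5 lines, the exact permutation test over lines gave p = 0.2 for EBV and p = 0.4 for CIMP. Its two-sided p was the doubled smaller one-sided p, which cannot go below 0.2 here.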

How the results depend on the processing

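Of 325 counts recomputed under alternatives, 308 stayed within 1.5 times the values reported. Of 2142 values of single genes, 2078 stayed on their side of the threshold. Another 47 lost the call, 15 gained one, and 2 gained one with the opposite sign. Values that did not pass could change sign and still count among the 2078, as for DMC1 in YCCEL1 (-1.91 to 2.04). Over the 5 lines 8 genes rose, but 4 with lines as replicates and 5 with the fold limit. Fitted alone, SNU719 gave 4, HGC27 4 and SNU16 2 in place of 7, 7 and 5. For the CIMP difference the count of 1 became 2 with a pseudocount of 5, 0 without YCCEL1, 2 without SNU719, 3 without HGC27 and 2 without SNU16. For EBV it became 3 with a pseudocount of 5, 0 without YCCEL1, 2 without HGC27 and 2 without SNU16. Without SNU16 the CIMP differences of STAG3 and MEIOB reversed, to -1.20 (adjusted p = 0.00303) and 1.66 (0.0205), from 0.06 and -0.45. Without SNU16, HGC27 is the only CIMP- line in the fit. The log2 differences of STAG3 and MEIOB were 3.15 and 1.89 in HGC27, and 0.63 and 6.11 in SNU16. Why these lines differ was not tested.

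Leaving out 1 library at a time gave 7 to 8 genes over the lines, 5 to 5 in YCCEL1, 6 to 7 in SNU719, 6 to 7 in AGS, 6 to 8 in HGC27 and 4 to 5 in SNU16. The counts ranged from 1 to 2 for CIMP, where REC8 was added without SNU719 DMSO replicate 2 (adjusted p = 0.0162). They ranged from 1 to 2 for EBV, where REC8 was added without SNU719 DMSO replicate 1 (0.0014) and SYCP3 without HGC27 DMSO replicate 2 (0.0164). They ranged from 3 to 6 for differences of response among lines, from 6 to 8 for DMSO levels and from 5 to 7 for DCB levels. Same-numbered libraries did not deviate together (r -0.040 to 0.022 over 16268 genes), so the numbers do not pair them. With the replicate block 7 genes rose over the lines, REC8 being lost (adjusted p = 0.073), as it was in HGC27 (0.0656), SMC1B was lost in SNU16 (0.0876) and DMC1 passed in HGC27 (0.0369). Rescaling moved the median of all genes by less than 0.006. Depth limits SYCP1, SMC1B and other values of a few reads.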
